A study of Mus musculus with 8 samples.

Results

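The genes described here are 35 genes of B cell identity and B cell receptor signalling, chosen by name with earlier results of these data known. They comprise 15 genes of surface molecules, 11 of transcription factors or their coactivator, and 9 of kinases, adaptors and related signalling proteins. All 35 were on the array, by 50 probes, and all 35 passed the filter on dim probes, out of 23231 genes tested. Pax5 passed only through Vav-Etv2 arrays, so a difference was built into its selection, and the main counts below are also given for the other 34. Their RNA levels come from sorted bone marrow cells of 6-week-old mice on a mixed strain background that includes B6 and CBA, with 4 groups of 2 arrays. The groups were KSL cells of Vav-Etv2 mice, KSL cells of control mice, Gr cells of Vav-Etv2 mice and Gr cells of control mice. Vav-Etv2 mice carry a transgene for Etv2, a factor of the ETS family known from embryonic blood and endothelial lineages, which is switched on by the Vav-iCre transgene, in which the Vav promoter drives the recombinase in blood cells. KSL cells are c-Kit positive, Sca-1 positive and lineage negative, a fraction that holds stem and early progenitor cells. Gr cells were sorted on Gr-1 and Mac-1 and hold granulocytes and their late precursors. All 7 monocyte and macrophage genes measured were also well above background on every Gr array, so Gr values are not those of granulocytes alone. The labels do not give the alleles that the control mice carry, nor whether the 2 arrays of a group come from separate animals, so the spread behind each p-value is that between arrays and may be technical.

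B cells arise from lymphoid progenitors through a chain of transcription factors in which Tcf3 and Foxo1 act with Ebf1, and Ebf1 with Pax5, to switch on the B cell programme. The finished receptor signals through Cd79a and Cd79b to the kinases Lyn, Blk, Syk and Btk, and the adaptor Blnk joins them to the phospholipase Plcg2. Stem and progenitor cells carry parts of this network, and granulocytes share several of its kinases and inhibitory receptors. In bulk RNA, more cells of a type and more RNA per cell cannot be told apart.

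Levels are log2 processed signals relative to the array's 75th percentile, a difference is Vav-Etv2 minus control unless stated, and each group has n = 2 arrays. A gene was called at a limma adjusted p under 0.05 over all genes. The SE and p of each comparison rest on the spread within all 4 groups, so the spread between Gr arrays enters those of the KSL differences. The 75th percentile of the signal was 136 to 301 across the arrays, 47.7% to 55.5% of probes were well above background, and the number of arrays limits the precision. Etv2 stood at 0.19 and -1.24 in Vav-Etv2 KSL cells, against -4.37 and -4.73 in control KSL cells. In Gr cells it stood at -0.55 and -1.30 with Vav-Etv2, against -4.48 in control 1 and -0.55 in the second array labelled as control. There the Etv2 signal was well above background, so the array labelled Gr control 2 goes against its label, and the main Gr results below are given with and without it. Kit stood at 3.45 and 4.32 in Vav-Etv2 KSL cells, 5.15 and 5.15 in control KSL cells, and 1.41 to 2.04 in Gr arrays. Ly6a, which encodes Sca-1, was lower in KSL arrays (2.25 to 3.65) than in Gr arrays (4.47 to 6.33). Among KSL arrays Ly6a stood at 2.25 and 3.09 with Vav-Etv2, against 3.65 and 3.59 in the controls. These sort marker genes were thus lower with Vav-Etv2 in KSL cells, though neither difference was called. Itgam, which encodes the Mac-1 alpha chain, stood at 4.54 to 5.19 in KSL arrays and at 5.95 to 7.20 in Gr arrays. Xist, expressed from the inactive X chromosome, was well above background on every KSL array and on both Gr arrays numbered 1. On both Gr arrays numbered 2 it was not, and the Y-linked Ddx3y was, so in Gr cells the replicate number and the sex of the sample coincide. The KSL arrays lay on row 1 of the slide and the Gr arrays on row 2, so slide row and cell type cannot be told apart.

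In Vav-Etv2 KSL cells, the largest differences of the set were those of Lef1, Ebf1, Pax5 and Blk, which encode 3 transcription factors and a kinase. Lef1 was 8.62-fold, Ebf1 6.47-fold and Blk 4.18-fold higher than in control KSL cells, and Pax5 at least 3.43-fold higher. No member passed the test: 0 of 35 were called, against 0.0172% of all genes (0.0043% higher, 0.0129% lower), and the smallest adjusted p was 0.360, for Lef1. At an unadjusted p under 0.05 there were 4 members, Lef1, Pax5, Blk and Foxo1, against 7.42% of all genes. The differences were positive for 29 members and negative for 6, with a median of 0.61, where the median over all genes was 0.00. In 18 members both Vav-Etv2 arrays were above both control arrays, which is 51.4% of the set, against 26.1% of all genes. In 2 members, Cd22 and Plcg2, both Vav-Etv2 arrays were below, against 25.5% of all genes. Since the members were listed with earlier results of these data known, such contrasts with all genes, here and for Gr cells below, are no independent test. Without Pax5, 3 of 34 members had an unadjusted p under 0.05, 28 were higher with a median of 0.58, and in 17 both Vav-Etv2 arrays were above both control arrays.

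**Figure D1:**
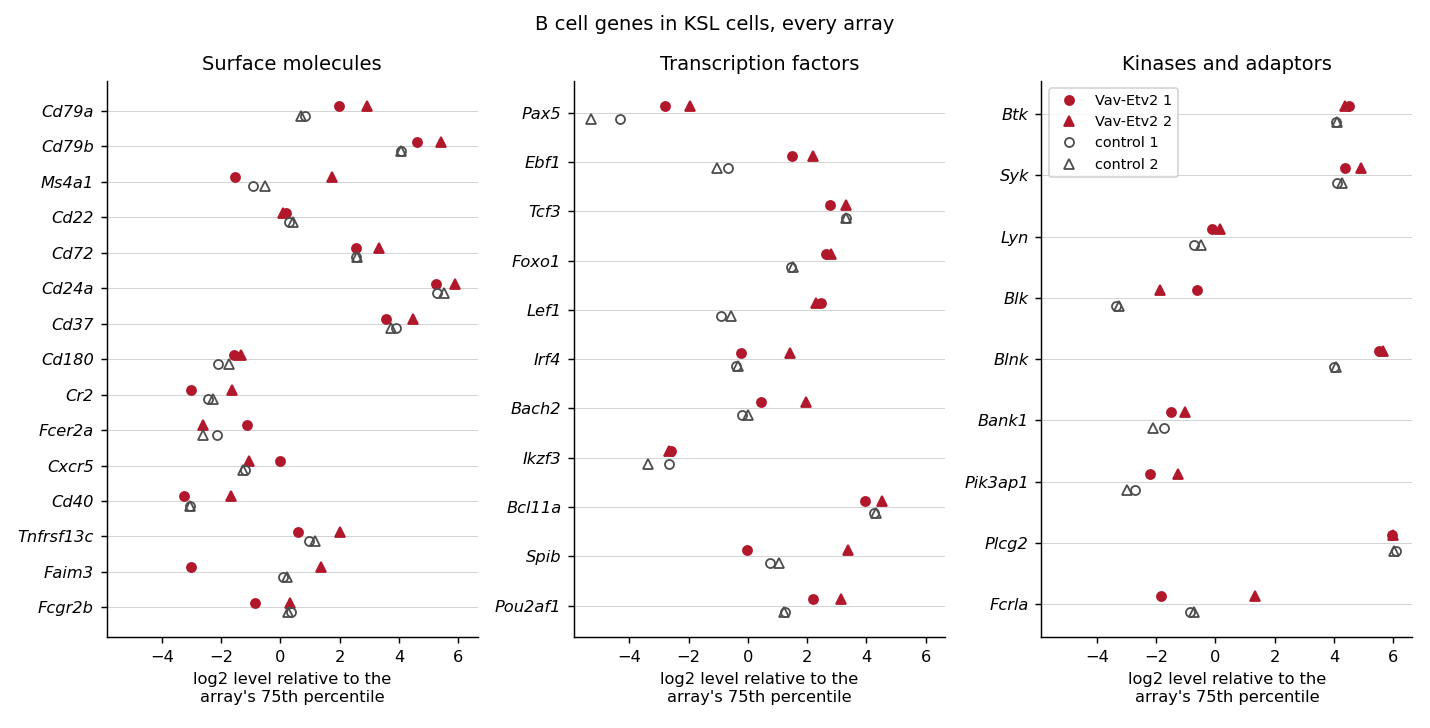
Level of each of the 35 genes on each KSL array (x axis, log2 relative to the array's 75th percentile), with Vav-Etv2 arrays as filled red symbols above the control arrays as open grey symbols, circles for array 1 and triangles for array 2. Lef1, Ebf1, Pax5, Blk and Blnk are separated by genotype, whereas Faim3, Ms4a1, Spib and Fcrla have their 2 Vav-Etv2 arrays on opposite sides of the controls.

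Among the transcription factors the median difference was 1.22, the highest of the 3 role groups, with 9 of 11 members higher, or 1.09 with 8 of 10 higher without Pax5. Lef1, an HMG-box factor of early lymphocytes, stood at 2.45 and 2.28 in Vav-Etv2 KSL cells, against -0.91 and -0.58 in control KSL cells. Its groups do not overlap and its Vav-Etv2 arrays lie close together. The difference was 3.11 (SE 0.80, adjusted p = 0.360), and the other Lef1 probe gave 2.98. Ebf1, a factor that specifies the B lineage, stood at 1.48 and 2.18 in Vav-Etv2 KSL cells, against -0.69 and -1.05 in control KSL cells. These groups do not overlap either, and the difference was 2.69 (SE 1.15, adjusted p = 0.692).

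Pax5, the factor that commits cells to the B lineage, stood at -2.81 and -1.95 in Vav-Etv2 KSL cells, where both arrays were well above background. It stood at -4.31 and -5.30 in control KSL cells, where neither was. The fold is therefore a lower bound, at least 3.43-fold (log2 difference as measured 2.42, SE 0.70, adjusted p = 0.440). With normexp background correction in place of the processed signal the log2 difference was 0.69, which is below that bound. Pax5 had 2 probes of 60 bases, whose sequences are shown because the reading rests on 1 of them: the first carries the values above, and the second, which spans an exon junction, was well above background on 0 of the 8 arrays.
Pax5, probe at chr4:44658421-44658480 (mm9): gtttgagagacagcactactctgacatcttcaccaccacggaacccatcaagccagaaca
Pax5, probe at chr4:44550354-44582908 (mm9): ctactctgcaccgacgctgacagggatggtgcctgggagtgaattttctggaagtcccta

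Foxo1, which drives early B cell genes together with Ebf1, stood at 2.64 and 2.79 in Vav-Etv2 KSL cells, against 1.45 and 1.52 in control KSL cells. The spread within each genotype was small beside the difference of 1.22 (SE 0.46, adjusted p = 0.617), and the other probe gave 1.53. Pou2af1, the coactivator of the octamer factors, stood at 2.18 and 3.13 in Vav-Etv2 KSL cells, against 1.25 and 1.20 in control KSL cells (difference 1.43, SE 0.78, adjusted p = 0.851). Bach2, a repressor of plasma cell fate, stood at 0.45 and 1.95 in Vav-Etv2 KSL cells, against -0.20 and 0.00 in control KSL cells (difference 1.30, SE 0.65, adjusted p = 0.809). Both genes had higher values on both Vav-Etv2 arrays, with array 2 the higher. Irf4, a factor of light-chain rearrangement and plasma cells, also had groups that do not overlap, at -0.25 and 1.43 in Vav-Etv2 KSL cells, against -0.42 and -0.33 in control KSL cells.

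The remaining factors overlapped between genotypes in KSL cells. Tcf3, which encodes the E proteins E12 and E47, stood at 2.78 and 3.32 in Vav-Etv2 KSL cells, against 3.31 and 3.32 in control KSL cells, a difference of -0.27 (SE 0.33). Its other probe gave a difference of 0.58, of the opposite sign. Bcl11a, a zinc-finger factor that lymphoid progenitors require, stood at 3.95 and 4.52 in Vav-Etv2 KSL cells, against 4.24 and 4.33 in control KSL cells, and its difference was -0.05 (95% interval -1.29 to 1.19). Spib, an ETS factor of mature B cells and plasmacytoid dendritic cells, stood at -0.02 and 3.39 in Vav-Etv2 KSL cells, against 0.76 and 1.04 in control KSL cells. Its 2 Vav-Etv2 arrays lay on opposite sides of the controls. Ikzf3, the Ikaros family member Aiolos, stood at -2.58 and -2.68 in Vav-Etv2 KSL cells, against -2.67 and -3.38 in control KSL cells.

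Among the 9 signalling genes the median difference was 0.64, with 8 higher. Blk, a Src-family kinase of B cells, stood at -0.62 and -1.86 in Vav-Etv2 KSL cells, against -3.37 and -3.24 in control KSL cells. The groups do not overlap, and the difference was 2.06 (SE 0.67, adjusted p = 0.534), or 0.92 with normexp background. Blnk, the adaptor downstream of Syk, stood at 5.53 and 5.66 in Vav-Etv2 KSL cells, against 4.01 and 4.06 in control KSL cells. Its replicates lay close together in both genotypes (difference 1.56, SE 0.72, adjusted p = 0.754). The SE takes in the Gr arrays, where the SD of Blnk was 1.56 with Vav-Etv2 and 0.82 in controls. In KSL cells these SDs were 0.09 and 0.04. With limma fitted to only the KSL arrays the adjusted p was 0.147. Pik3ap1, the adaptor that links the receptor to phosphoinositide 3-kinase, stood at -2.21 and -1.26 in Vav-Etv2 KSL cells, against -2.73 and -2.98 in control KSL cells (difference 1.12, SE 0.58, adjusted p = 0.821, or 0.55 with normexp background).

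Lyn, Syk, Btk and Bank1 differed less, with groups that do not overlap. Lyn, the first Src-family kinase at the receptor, stood at -0.10 and 0.14 in Vav-Etv2 KSL cells, against -0.73 and -0.50 in control KSL cells (difference 0.64, SE 0.28, adjusted p = 0.714). Syk stood at 4.37 and 4.90 in Vav-Etv2 KSL cells, against 4.11 and 4.28 in control KSL cells. Btk, the kinase that activates Plcg2, stood at 4.52 and 4.38 in Vav-Etv2 KSL cells, against 4.08 and 4.10 in control KSL cells. Bank1, a scaffold for Lyn, stood at -1.49 and -1.03 in Vav-Etv2 KSL cells, against -1.73 and -2.12 in control KSL cells. Plcg2 stood at 5.95 and 5.99 in Vav-Etv2 KSL cells, against 6.08 and 6.01 in control KSL cells, and its difference was -0.07 (95% interval -0.73 to 0.58). Fcrla, an Fc receptor-like protein inside B cells, stood at -1.85 and 1.34 in Vav-Etv2 KSL cells, against -0.87 and -0.73 in control KSL cells, so its Vav-Etv2 arrays lay on either side of the controls.

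Surface molecules had the smallest median difference, 0.36, with 12 of 15 higher. The signalling chains of the receptor had the largest positive differences of this group. Cd79a stood at 1.96 and 2.93 in Vav-Etv2 KSL cells, against 0.84 and 0.68 in control KSL cells, a difference of 1.68 (SE 0.96, adjusted p = 0.869), and its other probe gave 1.95. Cd79b stood at 4.62 and 5.41 in Vav-Etv2 KSL cells, against 4.06 and 4.06 in control KSL cells, a difference of 0.96 (SE 0.54, adjusted p = 0.856). In both chains each Vav-Etv2 array was above each control array. Cxcr5, the receptor that guides B cells into follicles, was also separated, at -0.02 and -1.06 in Vav-Etv2 KSL cells, against -1.19 and -1.25 in control KSL cells. Cd180, a Toll-like receptor homologue, was separated too, with a smaller mean difference (0.47, against 0.68 for Cxcr5). It stood at -1.56 and -1.34 in Vav-Etv2 KSL cells, against -2.10 and -1.74 in control KSL cells.

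In several markers of mature B cells the genotypes overlapped. Ms4a1, which encodes CD20, stood at -1.55 and 1.73 in Vav-Etv2 KSL cells, against -0.92 and -0.51 in control KSL cells. Faim3, the IgM Fc receptor gene now named Fcmr, stood at -3.03 and 1.38 in Vav-Etv2 KSL cells, against 0.09 and 0.22 in control KSL cells, the widest gap between Vav-Etv2 KSL arrays in the set. Tnfrsf13c, the BAFF receptor gene, stood at 0.60 and 2.02 in Vav-Etv2 KSL cells, against 0.95 and 1.15 in control KSL cells. In these 3 genes the controls lay between the Vav-Etv2 arrays. The inhibitory Fc receptor gene Fcgr2b stood at -0.87 and 0.33 in Vav-Etv2 KSL cells, against 0.34 and 0.27 in control KSL cells. Cd72, an inhibitory co-receptor, stood at 2.54 and 3.32 in Vav-Etv2 KSL cells, against 2.55 and 2.59 in control KSL cells. For the other 6 surface genes, Cd22, Cd24a, Cd37, Cr2, Fcer2a and Cd40, the differences ran between -0.23 (Cd22) and 0.61 (Cd40).

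**Figure D2:**
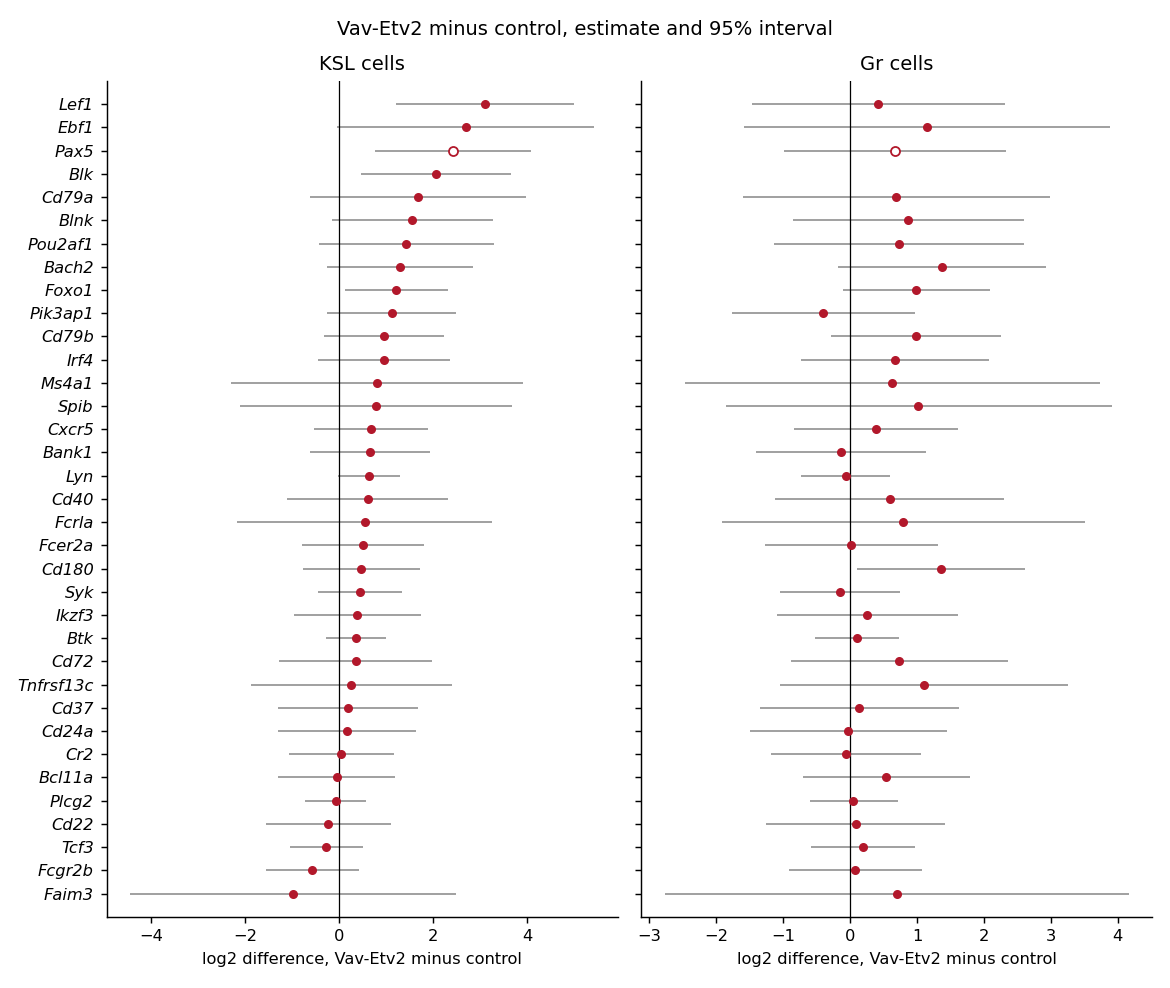
Log2 difference, Vav-Etv2 minus control, with its 95% interval from the limma model, for the 35 genes in KSL cells (left) and Gr cells (right), ordered by the KSL difference. In KSL cells 4 intervals, those of Lef1, Pax5, Blk and Foxo1, lie above 0, and in Gr cells 1 does, that of Cd180; none of these passed adjustment over all genes. The open symbols are Pax5, whose controls were below background, and Blk is not drawn for Gr cells, where both groups were.

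The 2 Vav-Etv2 KSL arrays differed from each other more than the 2 control arrays did. Their gap was over 1 log2 in 13 members, against 0 members between the control arrays, and the median absolute gap was 0.86 with Vav-Etv2, against 0.16 in the controls. Relative to the control mean, 19 members, Pax5 among them, were higher on both Vav-Etv2 arrays, 1 on array 1 only, 12 on array 2 only and 3 on neither. The median member difference was 0.36 for array 1 and 0.97 for array 2. Faim3, Ms4a1, Spib and Fcrla were below the control mean on array 1, by -3.18, -0.83, -0.92 and -1.05, and above it on array 2, by 1.22, 2.45, 2.49 and 2.14. Lef1, Ebf1, Pax5, Blk, Foxo1, Blnk and Cd79a were above the control mean on both arrays.

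Markers of other cell types also differed between these 2 arrays. The summed level of 10 mature neutrophil genes was 6.68 on Vav-Etv2 array 1 and 10.66 on array 2, against 10.63 and 10.57 in control KSL cells, with all 10 well above background on every array. The summed level of 6 endothelial genes was 5.57 on Vav-Etv2 array 1 and 3.54 on array 2, against 3.85 and 3.33 in control KSL cells. Well above background were 6 and 6 genes, against 4 and 5. Of these genes 5 were higher with Vav-Etv2 and 1 lower, with a median difference of 3.24 and 0 called. Their median level was 2.99 on Vav-Etv2 array 1 and -1.17 on array 2, against -2.50 and -2.31 in control KSL cells. By the median level they were thus higher on both Vav-Etv2 arrays. The summed level of 12 precursor B genes was close on both, at 9.04 and 8.87 with Vav-Etv2, against 8.42 and 8.43 in control KSL cells, with all 12 well above background on all 4 arrays. Of 7 monocyte and macrophage genes measured, 6 were higher with Vav-Etv2 and 0 called, with a median difference of 0.64, close to that of the members. Their summed level was 5.94 and 6.11 with Vav-Etv2, against 5.10 and 5.26 in control KSL cells, with 6 and 7 genes well above background, against 6 and 6, so it was higher on both Vav-Etv2 arrays. Of 7 dendritic and MHC class II genes 5 were higher, with a median of 0.29 and a summed level of 7.72 and 7.25 with Vav-Etv2, against 7.19 and 7.24 in control KSL cells. The summed level of 8 plasma cell genes was 5.23 and 5.66, against 6.72 and 6.77. That of 8 stem and progenitor genes was 7.73 and 7.69, against 8.09 and 8.18. All 8 of these stem and progenitor genes were lower with Vav-Etv2, with a median difference of -1.11 and 0 called. The part of any of these lists in the differences above was not tested.

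**Figure D3:**
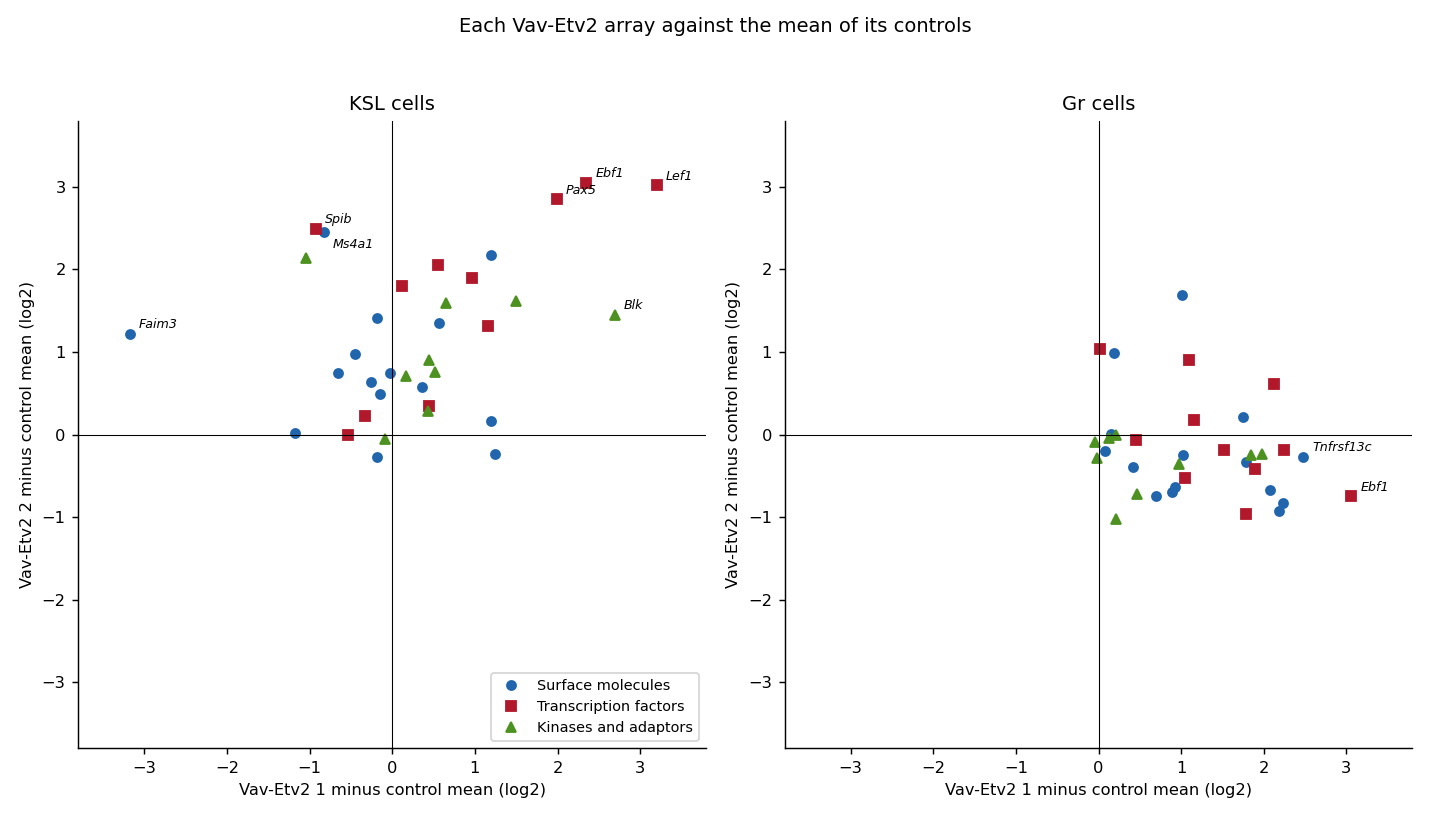
Each gene's level on Vav-Etv2 array 1 (x axis) and array 2 (y axis) minus the mean of the 2 control arrays (log2), for KSL cells (left) and Gr cells (right), with symbols by role. In KSL cells 19 genes are above 0 on both axes and 12 on array 2 only, while in Gr cells 25 genes are above 0 on array 1 only.

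Other B lineage genes were compared in the same way. Of 42 other B cell pathway genes, 30 were higher and 12 lower in Vav-Etv2 KSL cells, 0 were called, and the median difference was 0.23. This list holds surface molecules and transcription factors along with signalling genes. Id3, an inhibitor of E proteins, stood at -0.08 and 0.45 in Vav-Etv2 KSL cells, against -1.85 and -1.78 in control KSL cells (difference 2.01, SE 0.47, adjusted p = 0.311). Of the 12 precursor B genes 10 were higher, with a median of 1.07 and 0 called. They include the surrogate light chain genes, with Vpreb1 at 4.82 and 4.87 in Vav-Etv2 KSL cells, against 1.25 and 1.53 in control KSL cells, and Igll1 at 2.33 and 2.62, against -1.32 and -1.25. The recombinase gene Rag1 stood at 1.98 and 2.52 in Vav-Etv2 KSL cells, against -0.83 and -0.61 in control KSL cells. These genes had differences well above the list's median. The 2 lower precursor B genes were Sox4 (difference -0.34) and Erg (-0.71), and Dntt and Cd93 were higher by only 0.33 and 0.36. The plasma cell list ran the other way, with 6 of 8 lower and a median of -0.43, and so did the T and NK list, with 10 of 11 lower and a median of -0.57, again with 0 called in each.

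Promoters of the members were searched for short motifs of factors named above, in the 250 bases before each RefSeq transcription start on build GRCm38.p6, on both strands. The table held 27 of the 35 members, with 35 starts, among 32851 promoters. The ETS-type motif CAGGAAGT lay in 3 members, Lef1, Blnk and Cd79a, and in 2.69% of all promoters. The other ETS-type form, CCGGAAGT, lay in 1 member, Tcf3, and in 2.88% of all. The EBF-type motif CCCNNGGGA lay in Cd22 and Foxo1 and in 5.6% of all, and the octamer ATTTGCAT lay in Blnk and in 1.6% of all. The E-box CAGGTG lay in 12 members, at 13 of the 35 starts, and in 17.2% of all promoters. No 2 of these motifs share a match at the same bases in the promoters printed here, except that the EBF-type motif matches on both strands of Foxo1. The motifs and the 4 promoters were chosen after the expression values and matches had been seen. The promoters are printed because they hold a match and belong to members with large KSL differences, and capitals mark every match. For Lef1, 1 of its 4 starts in the table is shown.
Lef1, chr3:131156044-131156293, plus strand: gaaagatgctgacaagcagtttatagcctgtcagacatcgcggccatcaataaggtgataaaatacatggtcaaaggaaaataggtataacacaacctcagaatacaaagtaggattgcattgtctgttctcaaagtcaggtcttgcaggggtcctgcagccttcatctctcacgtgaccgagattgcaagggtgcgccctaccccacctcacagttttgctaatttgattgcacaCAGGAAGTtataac
Blnk, chr19:40994222-40994471, minus strand: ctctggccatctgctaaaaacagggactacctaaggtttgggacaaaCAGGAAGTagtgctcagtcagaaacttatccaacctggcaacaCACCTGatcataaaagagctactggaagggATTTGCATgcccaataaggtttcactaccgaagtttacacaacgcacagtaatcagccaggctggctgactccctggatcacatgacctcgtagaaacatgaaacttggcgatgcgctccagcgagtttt
Cd79a, chr7:24897247-24897496, plus strand: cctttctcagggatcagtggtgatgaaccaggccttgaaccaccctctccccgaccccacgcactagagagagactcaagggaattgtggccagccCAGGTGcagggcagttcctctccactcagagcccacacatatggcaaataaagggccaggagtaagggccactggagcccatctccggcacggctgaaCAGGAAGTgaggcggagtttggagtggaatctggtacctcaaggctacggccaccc
Foxo1, chr3:52268087-52268336, plus strand: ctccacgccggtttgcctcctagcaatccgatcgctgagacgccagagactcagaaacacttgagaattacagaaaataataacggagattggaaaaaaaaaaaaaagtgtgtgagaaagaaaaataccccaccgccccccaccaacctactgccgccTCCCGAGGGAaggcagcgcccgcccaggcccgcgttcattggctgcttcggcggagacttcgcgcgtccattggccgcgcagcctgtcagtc

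In Gr cells, 29 of 35 members were higher with Vav-Etv2 and 6 lower, with a median difference of 0.54, where the median over all genes was -0.01. The counts include Blk, which was below background on all 4 Gr arrays, and Pax5, without which the median was 0.48. No member was called, against 0.00861% of all genes, and every adjusted p was 1. At an unadjusted p under 0.05 there was 1 member, Cd180, against 1.27% of all genes. In 5 members, Cd79b, Cd180, Foxo1, Irf4 and Bach2, both Vav-Etv2 arrays were above both control arrays, which is 14.3% of the set, against 5.84% of all genes, and in 0 were both below, against 5.79%. The median rested on Vav-Etv2 array 1: relative to the control mean it was 1.02 on array 1 and -0.25 on array 2, with 25 members higher on array 1 only and 0 on array 2 only. Without the array labelled Gr control 2 the median was 0.15 and the count of calls was again 0. Within replicate number, which coincides with sex, the median was 1.03 between the arrays numbered 1 and 0.04 between those numbered 2.

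The genes that separated by genotype in Gr cells were the following. Bach2 stood at -0.52 and -2.03 in Vav-Etv2 Gr cells, against -2.36 and -2.92 in control Gr cells (difference 1.37, SE 0.65, or 1.09 without the array labelled Gr control 2). Cd180 stood at -1.55 and -0.87 in Vav-Etv2 Gr cells, against -3.31 and -1.82 in control Gr cells (difference 1.36, SE 0.52, or 2.10 without that array). Foxo1 stood at 1.15 and 0.95 in Vav-Etv2 Gr cells, against -0.64 and 0.75 in control Gr cells (difference 0.99, SE 0.46, or 1.69 without it). For Cd180 and Foxo1 the gap to control 1 was far wider than the gap to the array labelled control 2. Cd79b stood at 3.90 and 2.35 in Vav-Etv2 Gr cells, against 2.18 and 2.11 in control Gr cells (difference 0.98, SE 0.54, or 0.95 without it). Irf4 stood at -0.08 and -1.07 in Vav-Etv2 Gr cells, against -1.23 and -1.25 in control Gr cells.

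The other members with larger Gr differences were high on Vav-Etv2 array 1, while Vav-Etv2 array 2 lay near the array labelled Gr control 2. Ebf1 stood at -0.15 and -3.95 in Vav-Etv2 Gr cells, against -2.50 and -3.91 in control Gr cells (difference 1.15, SE 1.15, or 0.45 without the array labelled Gr control 2). Tnfrsf13c stood at 0.44 and -2.32 in Vav-Etv2 Gr cells, against -1.69 and -2.40 in control Gr cells (difference 1.10, SE 0.90, or 0.75 without it). Its other probe gave 0.06. Spib stood at 2.21 and -0.22 in Vav-Etv2 Gr cells, against 0.55 and -0.61 in control Gr cells (difference 1.02, SE 1.21, or 0.44 without it). Blnk stood at 2.69 and 0.48 in Vav-Etv2 Gr cells, against 1.29 and 0.13 in control Gr cells (difference 0.87, SE 0.72, or 0.30 without it). Fcrla stood at -0.28 and -2.37 in Vav-Etv2 Gr cells, against -1.38 and -2.86 in control Gr cells (difference 0.79, SE 1.14, or 0.05 without it). With normexp background all the Gr differences given for these genes were smaller. They were 0.70 for Bach2, 0.59 for Cd180, 0.61 for Ebf1, 0.69 for Tnfrsf13c and 0.42 for Fcrla. For Foxo1, Cd79b, Spib, Blnk and Cd72 they were 0.72, 0.92, 0.85, 0.81 and 0.53. In Ebf1, Tnfrsf13c, Spib, Blnk and Fcrla the arrays numbered 1 were the higher pair, in both genotypes. Cd72 followed the same order, at 1.04 and -1.07 in Vav-Etv2 Gr cells, against -0.44 and -1.05 in control Gr cells (difference 0.73, SE 0.68).

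Lef1, which had the largest KSL difference, stood at -0.21 and -2.96 in Vav-Etv2 Gr cells, against -2.07 and -1.94 in control Gr cells. Pax5 was well above background in Gr cells on Vav-Etv2 array 1 only, at -3.41. Blk was well above background on 0 of the 4 Gr arrays, so no fold is given. Array 1 exceeded array 2 in 32 of 35 members in Vav-Etv2 Gr cells, with a median gap of 1.44, and in 28 of 35 in control Gr cells, with a median gap of 0.68. Of the marker lists, mast and basophil genes also followed the replicate number, with a summed level of 0.69 and 5.66 in Vav-Etv2 Gr cells, against 2.48 and 6.35 in control Gr cells. The summed level of precursor B genes was 6.57 and 5.76, against 6.18 and 5.58, and that of mature neutrophil genes was 13.31 and 12.34, against 13.55 and 12.35. Of 7 dendritic and MHC class II genes 6 were higher and 1 lower, with a median of 0.49. Their summed level was 6.69 and 6.32, against 6.04 and 5.97. Monocyte and macrophage genes, also 6 higher and 1 lower, summed to 7.77 and 8.82, against 6.94 and 8.57. Of 11 T and NK genes 10 were lower, with a median of -0.59. No gene of these lists was called. The part of sex, depth or these cell types in the Gr values was not tested. Of the 42 other B cell pathway genes, 21 were higher and 21 lower in Vav-Etv2 Gr cells, with a median of 0.00 and 0 called.

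**Figure D4:**
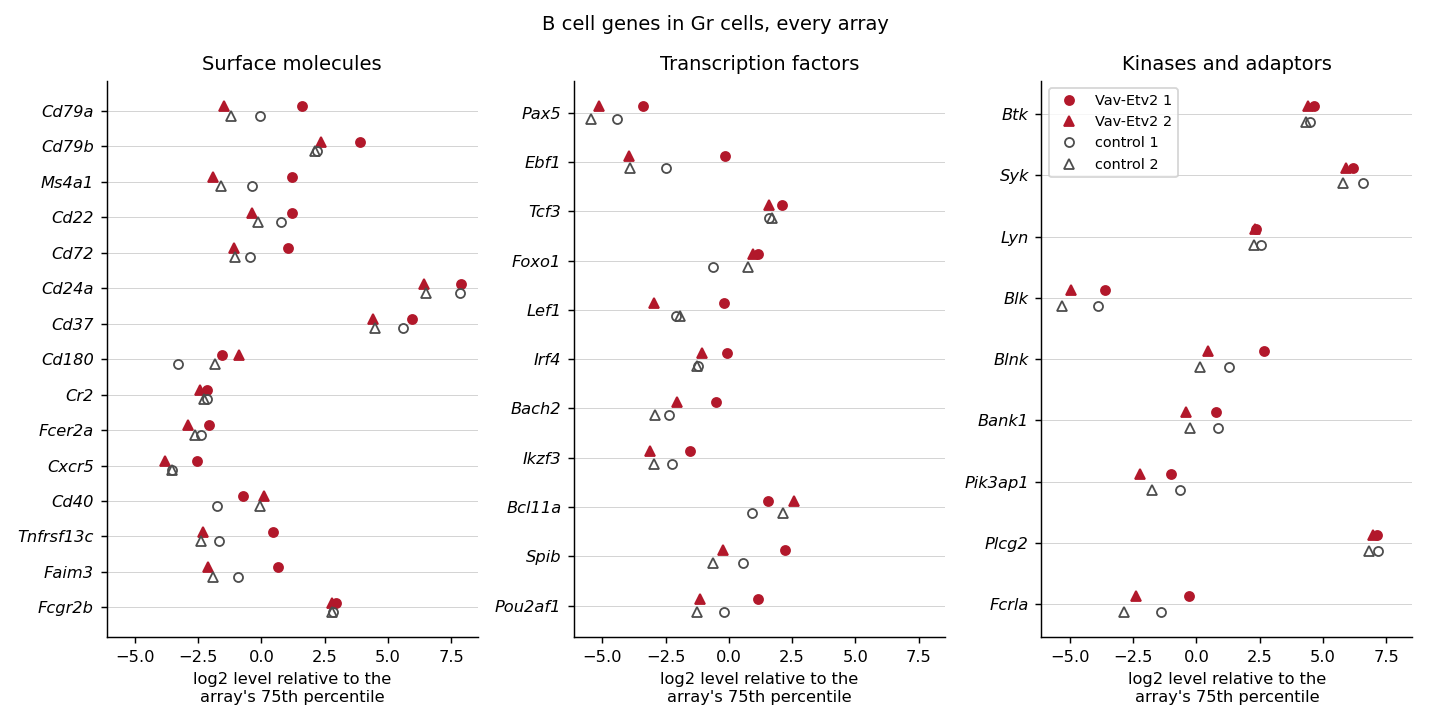
Level of each of the 35 genes on each Gr array (x axis, log2 relative to the array's 75th percentile), drawn as for KSL cells with Vav-Etv2 filled and red above control open and grey. The arrays numbered 1, shown as circles, are the higher ones in 32 members with Vav-Etv2 and in 28 in the controls.

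The effect of Vav-Etv2 was compared between the cell types by an interaction term, the KSL difference minus the Gr difference. No member was called, against 0.0043% of all genes. At an unadjusted p under 0.05 there was 1 member, Lef1, against 3.9% of all genes, with an interaction of 2.69 (SE 1.13, adjusted p = 1). The members' median interaction was 0.18. No member's effect was therefore shown to differ between KSL and Gr cells.

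Control KSL cells and control Gr cells differed in both directions across the set. Of the 35 members 13 were called: 8 were higher in KSL cells, which is 22.9% of the set against 16.3% of all genes, and 5 were lower, which is 14.3% against 18.5% of all genes. Both shares are near those of all genes. Both KSL arrays were above both Gr arrays in 18 members, against 34.9% of all genes, and below in 11, against 40.4% of all genes. At an unadjusted p under 0.05 there were 18 members, against 47.8% of all genes. The median difference, KSL minus Gr, was 0.87, where the median over all genes was -0.13. Most calls rested on having 2 KSL control arrays, among the members and over all genes. Fewer were also called without Gr control 1, and more without the array labelled Gr control 2, again among the members and over all genes. Each of these fits left 1 array in a group. The members' median ran from 0.58 to 0.91 with an array left out. All 4 KSL arrays carried Xist signal and the Gr controls were of unlike sex, so sex is not balanced in this comparison.

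The 8 members higher in control KSL cells were Cd72, Blnk, Bcl11a, Bach2, Cxcr5, Cd79b, Tcf3 and Tnfrsf13c. Cd72 stood at 2.55 and 2.59 in control KSL cells, against -0.44 and -1.05 in control Gr cells (difference 3.32, SE 0.68, adjusted p = 0.0131). Blnk stood at 4.01 and 4.06, against 1.29 and 0.13 (difference 3.32, SE 0.72, adjusted p = 0.0157). Bcl11a stood at 4.24 and 4.33, against 0.93 and 2.14 (difference 2.76, SE 0.52, adjusted p = 0.0102). In each of these genes both KSL arrays lay at least 2 log2 above both Gr arrays. Bach2 stood at -0.20 and 0.00, against -2.36 and -2.92 (difference 2.54, adjusted p = 0.0261). Cxcr5 stood at -1.19 and -1.25, against -3.55 and -3.55 (difference 2.33, adjusted p = 0.0163). Cd79b stood at 4.06 and 4.06, against 2.18 and 2.11 (difference 1.92, adjusted p = 0.0337). The E protein gene Tcf3 stood at 3.31 and 3.32, against 1.60 and 1.72 (difference 1.66, adjusted p = 0.0115). Tnfrsf13c stood at 0.95 and 1.15, against -1.69 and -2.40 (difference 3.09, adjusted p = 0.0384), but its other probe gave -0.41, so the probes of this gene disagree in direction. Without the array labelled Gr control 2 the adjusted p was 0.0764 for Bach2, 0.0778 for Cd79b and 0.111 for Tnfrsf13c. With normexp background the calls of Bach2 (adjusted p = 0.0556) and Cxcr5 (difference 0.93, adjusted p = 0.102) were lost.

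The 5 members lower in control KSL cells were Lyn, Fcgr2b, Bank1, Syk and Plcg2, of which myeloid cells are known to use Lyn, Syk, Plcg2 and Fcgr2b. Lyn stood at -0.73 and -0.50 in control KSL cells, against 2.54 and 2.27 in control Gr cells, a difference of -3.02 (SE 0.28, adjusted p = 0.00141). Fcgr2b stood at 0.34 and 0.27, against 2.81 and 2.77, a difference of -2.49 (SE 0.42, adjusted p = 0.00685). These were the members with the smallest adjusted p. Bank1 stood at -1.73 and -2.12, against 0.86 and -0.26, a difference of -2.22 (adjusted p = 0.0216). Syk stood at 4.11 and 4.28, against 6.59 and 5.78, a difference of -1.99 (adjusted p = 0.00998). Plcg2 stood at 6.08 and 6.01, against 7.18 and 6.83, a difference of -0.96 (adjusted p = 0.0366). Neither control group had an array with Pax5 well above background, and Blk was at least 2.1-fold higher in KSL cells without passing the test (adjusted p = 0.171). Of the 42 other B cell pathway genes 16 had positive and 26 negative differences, with a median of -0.71. Called higher in control KSL cells were 4, which is 9.52% against 16.3% of all genes, and called lower were 17, which is 40.5% against 18.5% of all genes.

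**Figure D5:**
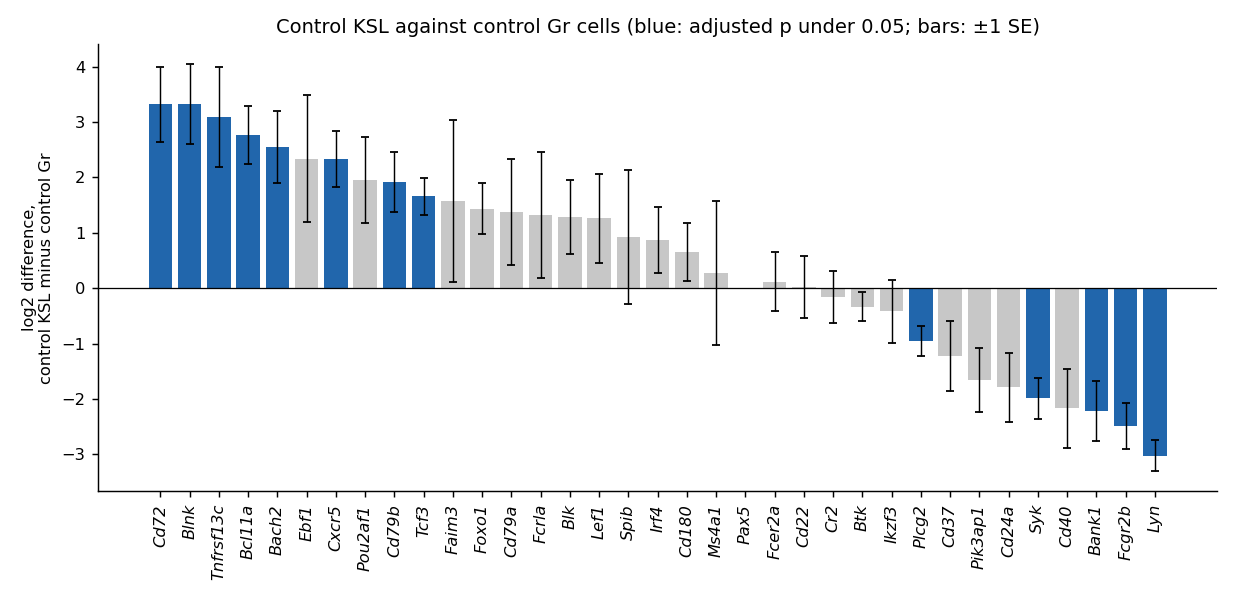
Log2 difference of 34 of the 35 genes, control KSL minus control Gr cells, with bars of 1 SE either side; blue columns are the 13 genes with an adjusted p under 0.05. The 8 higher genes run from Cd72 (3.32) to Tcf3 (1.66), and the 5 lower genes from Plcg2 (-0.96) to Lyn (-3.02). Pax5, below background in both groups, has no column.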

How the data were processed

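Per the file headers, the authors deposited 1-colour fluorescence intensity read from 8 arrays with version 10.7.3.1 of Agilent Feature Extraction; the submitters' processing notes give 10.7. The processed signal is background-subtracted. The deposited flag columns (other values: 0 or 1 per spot) mark control, outlier, saturated and well-above-background spots. The deposited value table holds log2 values; 99.8% of them lay within 0.01 of the values here once centred within each cell type, so it served only as an alternative.

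Outlier spots were dropped, spots of a probe averaged, and log2 signals set relative to the array's 75th percentile. A probe was kept if 2 or more of the 8 arrays had it well above background, and the brightest stood for its gene. Coordinates of probes are mm9, as deposited. Of 55681 probes, 32354 passed, giving 23231 genes.

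All 4 groups were fitted in 1 linear model with limma 3.58.1 (lmFit, eBayes) in R 4.3.3, with 4 residual and 2.77 prior degrees of freedom, and Benjamini-Hochberg adjustment over all genes. SE is limma's moderated standard error. A fold against a group with no array well above background is a lower bound, with dim signals raised to the array's lowest well-above-background signal. The model was tested on simulated data. Members, lists and naming rule were chosen with earlier results of these data known. Values per array are given for members called in any comparison and for the 10 with the largest KSL or Gr differences, and for further members named for their role. Id3, Vpreb1, Igll1 and Rag1 were named after their values were seen. The marker lists without values in the text, plasmacytoid dendritic and erythroid, had 0 calls with Vav-Etv2 in either cell type and KSL medians of -0.04 and -0.58. Same-numbered arrays are not stated to share an animal or batch, so no block was used.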

Additional observations from a re-analysis of the deposited data

How the results depend on the processing

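The count of members called with Vav-Etv2 was 0 in KSL cells, in Gr cells and for the interaction under every alternative run: normexp background, median scaling, quantile normalization, no filter, probes well above background on all 8 arrays, the mean of a gene's probes, only the arrays compared (not run for the interaction), an intensity trend, a floor, the value table, the replicate block and each array left out. The KSL median stayed positive, at 0.42 with normexp and between 0.36 and 0.97 with an array left out. The Gr median was 0.22 with normexp, 0.42 with the floor and between -0.25 (without Vav-Etv2 array 1) and 1.02 with an array left out. The interaction median ran from -0.42 to 0.80 with an array left out. With the replicate block the medians were again 0.61, 0.54 and 0.18; same-numbered arrays' deviations correlated at 0.0681 in KSL and 0.658 in Gr cells, with 2 pairs each. The labels do not say what a number shares, and in Gr cells it coincides with sex. Between control KSL and control Gr cells, where numbers carry no pairing, 10 to 16 members were called against 13, and 1 to 17 with an array left out (1 without either KSL control, 8 without Gr control 1). The median of 0.87 was 0.18 with normexp. Calls lost were Bach2 (adjusted p = 0.0556) and Cxcr5 (0.102) with normexp, Cd79b (0.0584), Plcg2 (0.0989) and Tnfrsf13c (0.0581) with no filter, Plcg2 (0.0841) with only the arrays compared and Tnfrsf13c (0.244) with the mean of its probes. With no filter the adjustment ran over 36081 genes, against 23231. The cause of these changes was not tested.

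Some uncalled differences turned sign. In KSL cells Bcl11a was 0.00 with median scaling and Tcf3 0.16 with the mean of its probes. With each array left out, KSL differences ran from -0.33 to 0.23 for Bcl11a, -0.03 to 0.74 for Cd72, -1.17 to 0.03 for Fcgr2b, -1.05 to 2.14 for Fcrla, -0.92 to 2.49 for Spib, -0.54 to 0.00 for Tcf3 and -0.44 to 0.97 for Tnfrsf13c. Gr differences ran from -0.73 to 0.46 for Bank1, -0.06 to 1.15 for Bcl11a, -0.38 to 1.01 for Blk (below background on all 4 Gr arrays, so not a measured difference), -0.23 to 1.98 for Blnk, -0.32 to 1.79 for Cd72, -0.84 to 2.22 for Cd79a, -0.25 to 1.02 for Cxcr5, -0.75 to 3.05 for Ebf1 and -0.25 to 1.84 for Fcrla. They ran from -0.95 to 1.79 for Lef1, -0.20 to 0.07 for Lyn, -0.19 to 1.52 for Pax5, -1.01 to 0.21 for Pik3ap1, -0.12 to 0.23 for Plcg2, -0.43 to 1.89 for Pou2af1, -0.19 to 2.24 for Spib, -0.55 to 0.26 for Syk, -0.07 to 0.46 for Tcf3 and -0.28 to 2.48 for Tnfrsf13c. Signal over background limits Pax5 in control and most Gr arrays, and Blk in Gr cells.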
